A study of Rattus norvegicus with 9 samples.

Results

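Of the 34408 gene entries measured by RNA sequencing in rat spleen, 9 were taken by name as genes of megakaryocytes and platelets: Itga2b, Itgb3, Gp1bb, Gp9, Gp5, Gp6, Ppbp, Pf4 and Treml1. All 9 were found, each as a single entry. The 9 spleen libraries, made from total RNA of wild-type rats, came as 3 in each of 3 groups. The TAA+celecoxib rats received thioacetamide (TAA), a hepatotoxin that scars the rodent liver, as intraperitoneal doses of 200 mg/kg at intervals of 3 days for 8 weeks and of 100 mg/kg for 8 further weeks, together with celecoxib, an inhibitor of cyclooxygenase 2, at 20 mg/kg/day during the second 8 weeks. The TAA rats received the same TAA course without celecoxib, and the control rats are labelled as controls with no agent named. No strain, sex or age was found in the sources used here. Nothing says that each library came from a separate animal, so each p-value measures only the spread between these libraries, which may be technical.

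Megakaryocytes are large polyploid cells that shed platelets, and in rodents they mature in the red pulp of the spleen as well as in bone marrow. Platelets hold no nucleus but carry RNA from the megakaryocyte, and the spleen stores a pool of them, which grows in portal hypertension. The 9 genes encode the adhesion receptors and granule proteins of these cells: the von Willebrand factor receptor (Gp1bb, Gp9 and Gp5), the collagen receptor (Gp6), the fibrinogen receptor (Itga2b and Itgb3), the granule chemokines (Ppbp and Pf4) and a granule membrane receptor (Treml1).

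Genes of this lineage are known to be controlled by GATA and ETS transcription factors, so their promoters were searched for both kinds of site. RefSeq windows of the assembly GRCr8, taken as the 250 bases before the transcription start, were matched by symbol for 7 of the 9 genes, not for Itgb3 and Pf4. The GATA words were AGATAA and TGATAA and the ETS words AGGAAG and CGGAAG, on both strands. Of all 33469 rat windows, 16.9% held a GATA word, 39.4% an ETS word and 5.89% both. Of the 7 windows, 3 held both, those of Itga2b, Gp6 and Gp5, and 2 more, of Gp1bb and Gp9, held an ETS word alone. Ppbp and Treml1 held neither word in this window. The 3 windows with both kinds of word are shown 5′ to 3′ with the words in capitals:
Itga2b (GRCr8 chr10:87925834-87926083, minus strand): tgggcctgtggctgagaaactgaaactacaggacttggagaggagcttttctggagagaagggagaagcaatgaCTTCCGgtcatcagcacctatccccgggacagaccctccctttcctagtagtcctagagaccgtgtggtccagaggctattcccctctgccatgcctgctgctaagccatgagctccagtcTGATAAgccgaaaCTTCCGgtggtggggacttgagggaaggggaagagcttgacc
Gp6 (GRCr8 chr1:78508258-78508507, plus strand): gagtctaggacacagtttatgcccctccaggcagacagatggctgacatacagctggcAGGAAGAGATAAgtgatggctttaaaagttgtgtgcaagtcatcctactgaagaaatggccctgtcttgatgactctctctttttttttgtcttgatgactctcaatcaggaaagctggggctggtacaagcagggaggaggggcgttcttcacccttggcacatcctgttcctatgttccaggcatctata
Gp5 (GRCr8 chr11:83948257-83948506, plus strand): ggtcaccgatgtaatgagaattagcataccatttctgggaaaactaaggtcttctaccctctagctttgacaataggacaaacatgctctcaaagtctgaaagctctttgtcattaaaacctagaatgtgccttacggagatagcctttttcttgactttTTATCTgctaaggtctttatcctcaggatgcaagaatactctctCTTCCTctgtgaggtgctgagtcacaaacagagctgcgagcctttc
In Itga2b the GATA word began 55 bases before the start and an ETS word on the other strand began 42 bases before it, with another ETS word 176 bases before it. In Gp6 the ETS word at 192 bases and the GATA word at 186 bases before the start stood side by side. A match describes the letters and not a bound site, and Gp5 with both words was among the lowest of the 9 genes in these spleens.

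Library totals were 14211789 to 19014761 counts. Levels within a gene are given as CPM, counts divided by the TMM-scaled library total, and levels between genes as the deposited FPKM, which is also divided by gene length. On the first principal component (31.3% of the variance) TAA+celecoxib 1 and control 1 scored -60.3 and -63.2, far from the -1.73 to 50.1 of the other 7 libraries, and values without them are given where they move a result most. Markers of T and B cells were present in every library, the 7 T cell genes at 616 to 832 CPM in TAA+celecoxib, 530 to 651 in TAA and 721 to 878 in control, and the 6 B cell genes at 1304 to 2361 CPM over all libraries. A bulk sample cannot tell fewer cells of a type from less RNA per cell.

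Pf4, which encodes platelet factor 4, a heparin-binding chemokine, had the highest level per length in all 3 groups, at 263 ± 38.7 FPKM (SD, n = 3) in TAA+celecoxib, 418 ± 121 in TAA and 303 ± 33.6 in control spleens. Its mean over the 9 libraries was above that of 98.6% of the 15954 genes tested. This rank depends on the listed length of Pf4, only 318 bases, against 909 for Ppbp and 3305 for Itga2b, since FPKM is divided by it. By CPM, which is not, the means of Pf4 and Itga2b were 134 and 102 in TAA and 97.4 and 61.1 in control. Ppbp, the precursor of several platelet chemokines, had 31.9 ± 5.11 FPKM in TAA+celecoxib, 35.7 ± 4.49 in TAA and 17.2 ± 8.19 in control. Itga2b, the integrin alpha chain that marks the megakaryocyte lineage, had 19.6 ± 4.42, 30.6 ± 2.14 and 18.3 ± 6.10 FPKM in TAA+celecoxib, TAA and control. Treml1, a receptor stored in platelet alpha granules, had 8.42 ± 1.78, 11.1 ± 2.89 and 7.17 ± 1.23 FPKM, and Gp9 had 5.33 ± 0.712, 5.12 ± 1.57 and 3.58 ± 0.548 FPKM in the same order. The lowest of the genes tested was Gp6, at 2.89 ± 0.409, 3.53 ± 0.579 and 2.81 ± 0.770 FPKM in that order. The order of levels was the same in TAA+celecoxib and TAA spleens, Pf4, Ppbp, Itga2b, Itgb3, Treml1, Gp9 and Gp6, and in controls Itga2b stood above Ppbp. Between neighbours in this order, the FPKM ranges overlapped for Itga2b and Itgb3 and for Itgb3 and Treml1 in TAA+celecoxib. They overlapped for Ppbp and Itga2b, Itga2b and Itgb3, and Gp9 and Gp6 in TAA, and for all neighbours except Pf4 and Itga2b and except Treml1 and Gp9 in control.

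Gp5 and Gp1bb gave almost no reads, although both encode parts of the same surface complex as Gp9. Gp5, the glycoprotein V subunit (ENSRNOG00000061705, chromosome 11, 73015387 to 73017090), had 0, 4 and 2 counts in TAA+celecoxib, 1, 2 and 2 in TAA and 0, 1 and 1 in control, 13 in all. Gp1bb, the beta chain of glycoprotein Ib (ENSRNOG00000046981, chromosome 11, 86520992 to 86522169), was listed at 0 in all 9 libraries, where 3 counts equal 0.158 to 0.211 CPM of the library totals before TMM scaling. All of its span but 1 base lies within that of Septin5 on the same strand (86512797 to 86522168), a gene for a cytoskeletal septin. Septin5 had 114, 280 and 137 counts in TAA+celecoxib, 134, 153 and 196 in TAA and 81, 114 and 130 in control, and how reads in the shared span were assigned was not tested. Neither gene passed the filter on low counts, so 7 of the 9 genes were tested. Gp1ba, the alpha chain of the same glycoprotein, named here after its values were seen, had 5.51, 11.2 and 10.4 CPM with TAA+celecoxib, 11.1, 13 and 11 CPM with TAA alone and 1.48, 6.62 and 8.19 CPM in controls.

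**Figure D1:**
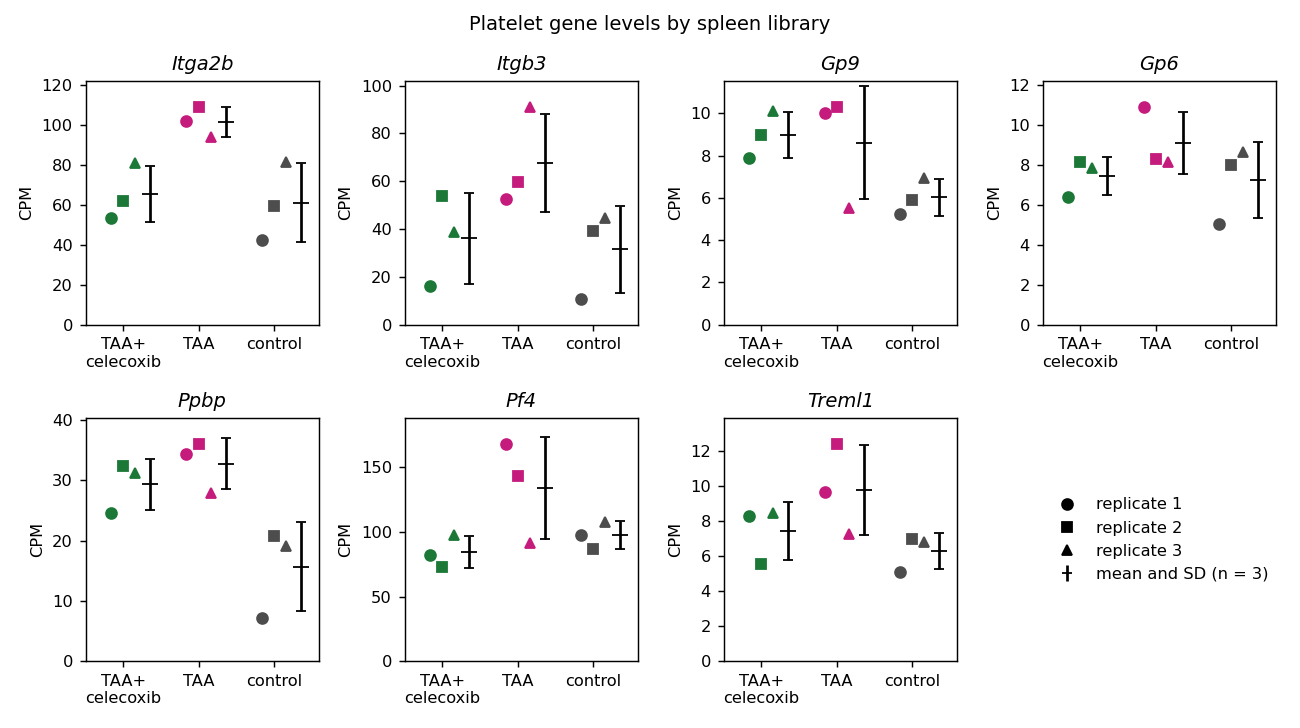
CPM of the 7 platelet genes tested, by group on the horizontal axis, with 1 point per library, marker shape for replicate and the mean with its SD (n = 3) at the right of each group. Itga2b, Itgb3, Ppbp and Treml1 lie higher in every TAA library than in every control library, and Ppbp and Gp9 lie higher in every TAA+celecoxib library than in every control library.

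TAA against control addresses the effect of the TAA course on these genes in the spleen. The 7 genes tested all had fitted values above 0, with a median log2 fold change of 0.63 and a range of 0.33 to 1.10, beside a median of 0.00 over all 15954 genes, of which 50.2% were above 0 and 49.8% below. By edgeR's quasi-likelihood test, 0 of the 7 passed an adjusted p (Benjamini-Hochberg over all genes) of 0.05, and so did 0 of 15954 genes (0% called). At an unadjusted p under 0.05 there were 3 of 7, Itga2b, Ppbp and Treml1, and 957 of 15954 genes, or 6%. DESeq2 called 58 genes (0.364%), none of them among the 7. The groups did not overlap for 4 of the 7 genes, each higher in TAA, as for 6.94% of all genes tested, and for none lower in TAA, as for 7.89% of all genes.

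The fibrinogen receptor genes were both higher in all 3 TAA libraries. Itga2b (ENSRNOG00000022071, chromosome 10, 90398132 to 90415070) had 102, 109 and 94 CPM in TAA spleens, against 42.3, 59.3 and 81.6 CPM in control spleens. The lowest TAA library thus lay above the highest control, and the spread among TAA libraries was narrow. The log2 fold change was 0.74 ± 0.24 (SE; 95% interval 0.20 to 1.28), with an edgeR adjusted p of 0.788. Itgb3, the beta chain that pairs with Itga2b on platelets and with another alpha chain on endothelium and macrophages (ENSRNOG00000048449, chromosome 10, 92667869 to 92783410), had 52.7, 59.5 and 91 CPM with TAA, against 10.8, 39.4 and 44.6 CPM in controls. Its groups did not overlap either, but control 1 and TAA 3 lay far from the rest. Its log2 fold change was 1.10 ± 0.55 (95% interval -0.15 to 2.35, edgeR adjusted p = 0.788), and it became 0.69 without control 1 and 1.43 without control 3.

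Itgb3 did not keep a fixed ratio to its partner. The ratio of Itgb3 to Itga2b in FPKM was 0.415, 1.20 and 0.659 in TAA+celecoxib, 0.712, 0.753 and 1.34 in TAA and 0.353, 0.918 and 0.756 in control. The lowest ratios were those of control 1 and TAA+celecoxib 1, and the highest that of TAA 3. The same libraries held the extremes of the macrophage and endothelium markers. The 11 macrophage genes summed to 2514 to 5568 CPM in TAA+celecoxib, 6383 to 9856 in TAA and 3140 to 5913 in control, with 2514 CPM in TAA+celecoxib 1, 3140 in control 1 and 9856 in TAA 3. The 9 endothelium genes in the files, with none at 0, summed to 386 to 922 CPM in TAA+celecoxib, 784 to 1230 in TAA and 391 to 1042 in control. TAA+celecoxib 1 had 386, control 1 had 391 and TAA 3 had 1230 CPM of these. All 11 macrophage genes were detected, and their part and that of the endothelium in the Itgb3 values was not tested.

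**Figure D2:**
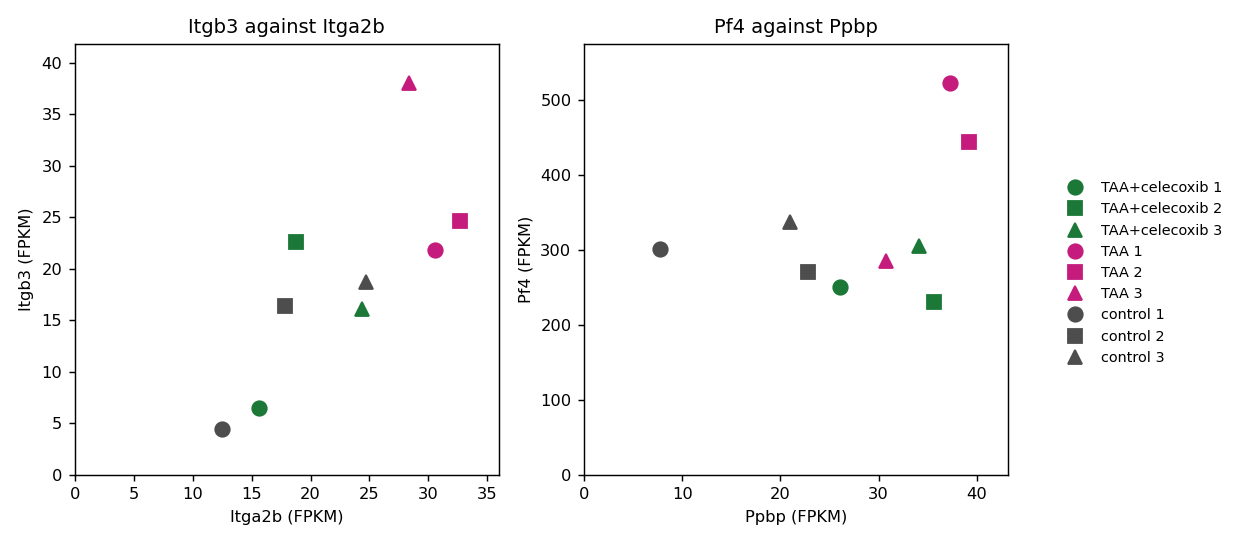
FPKM of Itgb3 against Itga2b (left) and of Pf4 against Ppbp (right), with 1 point per library, colour for group and marker shape for replicate. Control 1 lies apart on the right, at 7.76 FPKM of Ppbp and 301 FPKM of Pf4, and TAA 3 has the highest Itgb3, 38 FPKM, on the left.

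The chemokine genes Pf4 and Ppbp lie next to each other on chromosome 14 with 2695 bases between them, Pf4 at 18848549 to 18849258 (ENSRNOG00000028015) and Ppbp at 18851954 to 18853315 (ENSRNOG00000002829). Ppbp had 34.3, 36 and 27.9 CPM with TAA, against 7.21, 20.8 and 19.1 CPM in controls. Every TAA library was above every control, and control 1 was the lowest by a wide margin. The log2 fold change was 1.06 ± 0.34 (95% interval 0.28 to 1.83, edgeR adjusted p = 0.788), 0.71 without control 1 and 1.31 without control 2. Pf4 had 168, 143 and 91.1 CPM with TAA, against 97.8, 86.8 and 108 CPM in controls. TAA 3 lay inside the control range, so the groups overlapped, and the log2 fold change was 0.46 ± 0.22 (95% interval -0.03 to 0.95, edgeR adjusted p = 0.788). It was 0.27 without TAA 1 and 0.67 without TAA 3. The ratio of Pf4 to Ppbp in FPKM was 38.8 in control 1, where Pf4 was not low, and 6.49 to 16.1 in the other 8 libraries.

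Treml1 (ENSRNOG00000040109, chromosome 9, 14597172 to 14599594) had 9.66, 12.4 and 7.26 CPM with TAA, against 5.12, 6.95 and 6.83 CPM in controls. The groups lay close but did not overlap, with a log2 fold change of 0.63 ± 0.27 (95% interval 0.02 to 1.24, edgeR adjusted p = 0.788). Gp9, the small glycoprotein IX subunit of the von Willebrand factor receptor (ENSRNOG00000010015, chromosome 4, 119680112 to 119682547), had 10, 10.3 and 5.54 CPM with TAA, against 5.24, 5.89 and 6.94 CPM in controls. TAA 1 and TAA 2 were above every control and TAA 3 was not. Gp6, the collagen receptor that signals through the Fc receptor gamma chain (ENSRNOG00000047204, chromosome 1, 73040901 to 73064641), had 10.9, 8.29 and 8.15 CPM with TAA, against 5.06, 8.01 and 8.65 CPM in controls. Control 3 was above both TAA 2 and TAA 3. The log2 fold changes were 0.52 ± 0.27 for Gp9 (edgeR adjusted p = 0.788) and 0.33 ± 0.25 for Gp6 (edgeR adjusted p = 0.795). The value of Gp6 was 0.13 without control 1, 0.18 without TAA 1 and 0.48 without control 3.

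Within the TAA group the genes fell into 2 patterns. Pf4, Gp9, Treml1, Ppbp, Gp6 and Itga2b were lowest in TAA 3, whereas Itgb3 was highest there. Control 1 was the lowest of all 9 libraries for each of the 7 genes except Pf4, which was lowest in TAA+celecoxib 2. Over the 9 libraries the highest value was 8.43 times the lowest for Itgb3 and 4.99 times for Ppbp, and 1.97 to 2.58 times for the other 5. Without control 1 all 7 fitted values stayed above 0 with a median of 0.50, and without control 1 and TAA+celecoxib 1 the median was 0.49.

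**Figure D3:**
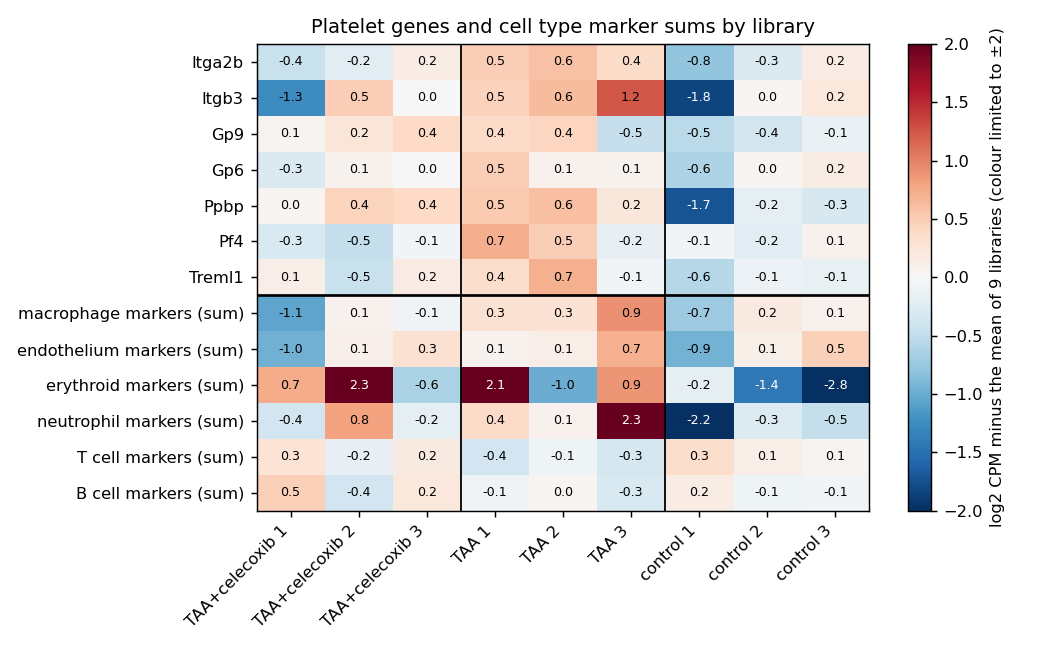
Log2 CPM of the 7 platelet genes and of summed marker lists of 6 other cell types (rows) in each library (columns), each row less its mean over the 9 libraries. Control 1 and TAA+celecoxib 1 are low in Itgb3 and in the macrophage and endothelium sums, while TAA 1 and TAA 2 are alike in the platelet genes and differ in the erythroid sum, 3500 and 408 CPM.

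Markers of other blood cells varied between groups and libraries as well. The 9 erythroid genes in the files, with none at 0, summed to 525 to 4044 CPM in TAA+celecoxib, 408 to 3500 in TAA and 118 to 710 in control. The 10 neutrophil genes, with none at 0, summed to 365 to 832, 506 to 2272 and 102 to 395 CPM in the same order. TAA 1 and TAA 2 had 3500 and 408 CPM of erythroid markers, whereas the 9 platelet genes summed to 388 CPM in TAA 1 and 378 CPM in TAA 2. The platelet genes summed to 325 CPM in TAA 3, the library with the most neutrophil markers. The 8 mast cell genes, with none at 0 throughout, summed to 40.9 to 46.6 CPM in TAA+celecoxib, 52.9 to 62.2 in TAA and 39.1 to 49.5 in control, so that every TAA library was above all others. Among them Cpa3, a mast cell protease, had fitted values of 2.72 in TAA against control and -1.78 in TAA+celecoxib against TAA, and the protease gene Mcpt1 had 2.20 and -1.63 (edgeR adjusted p = 0.788 and 0.890 for both). Of the 6 mast cell genes tested, 2 went the other way in both comparisons. Hdc had -1.01 and 0.72 and was lower in every TAA library than in every control, and Kit had -0.18 and 0.08. Of the 7 T cell genes, 6 did not overlap and were lower in TAA than in control, beside 7.89% of all genes tested. The median log2 fold change over the list was -0.77, and Cd4 went the other way, at 0.19. The part of these cell types in the platelet gene values was not tested. Transcripts of 7 hepatocyte genes summed to 887 CPM in TAA 1, to 113 CPM in control 1 and to at most 0.842 CPM elsewhere. Several of these genes were at 0 in some libraries, and none was at 0 in all. Without TAA 1 the median of the 7 platelet genes was 0.64.

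TAA+celecoxib against TAA addresses the effect of celecoxib on top of the TAA course. It shares the TAA libraries with the comparison of TAA and control, so the values of both comparisons are not independent. Fitted values were below 0 for 6 of the 7 genes, with a median log2 fold change of -0.39 and a range of -0.91 to 0.06, beside a median of 0.01 over all genes tested, of which 48.8% were below 0 and 51.2% above. By edgeR 0 of the 7 and 0 of 15954 genes passed (0% called). At an unadjusted p under 0.05 there were 2 of 7, Pf4 and Itga2b, and 812 of 15954, or 5.09%. DESeq2 called 25 genes (0.157%) and none of the 7. The groups did not overlap for Itga2b and Gp6, lower in TAA+celecoxib, as for 5.03% of all genes, and for none higher, as for 5.87%.

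Pf4 had 82.4, 73.2 and 97.8 CPM with TAA+celecoxib, against 168, 143 and 91.1 CPM with TAA alone. TAA 1 and TAA 2 were above all other libraries, and TAA 3 lay among the TAA+celecoxib values. The log2 fold change was -0.66 ± 0.22 (95% interval -1.16 to -0.17, edgeR adjusted p = 0.890). Itga2b had 53.4, 62 and 81 CPM with TAA+celecoxib, against 102, 109 and 94 CPM with TAA alone, with no overlap. Its log2 fold change was -0.64 ± 0.24 (95% interval -1.18 to -0.10, edgeR adjusted p = 0.890). Itgb3, at 16, 53.9 and 38.6 CPM with TAA+celecoxib, against 52.7, 59.5 and 91 CPM with TAA alone, overlapped by 1 library and had a log2 fold change of -0.91 ± 0.55 (edgeR adjusted p = 0.890). That value was -0.55 without TAA+celecoxib 1, -0.54 without both TAA+celecoxib 1 and control 1, and -1.31 without TAA+celecoxib 2.

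Ppbp and Gp9 stayed near their TAA levels. Ppbp had 24.5, 32.3 and 31.2 CPM with TAA+celecoxib, against 34.3, 36 and 27.9 CPM with TAA alone, with a log2 fold change of -0.16 ± 0.34 (95% interval -0.92 to 0.61, edgeR adjusted p = 0.946). Gp9 had 7.91, 8.98 and 10.1 CPM with TAA+celecoxib, against 10, 10.3 and 5.54 CPM with TAA alone, with a log2 fold change of 0.06 ± 0.27 (95% interval -0.54 to 0.67, edgeR adjusted p = 0.977). These intervals include changes as large as those of Pf4 and Itga2b for Ppbp, and do not show that the genes were unaffected. Treml1 had 8.29, 5.54 and 8.46 CPM with TAA+celecoxib, against 9.66, 12.4 and 7.26 CPM with TAA alone, with a log2 fold change of -0.39 ± 0.27. That of Treml1 was -0.22 without TAA+celecoxib 2, -0.18 without TAA 2 and -0.57 without TAA 3. Gp6 had 6.39, 8.14 and 7.84 CPM with TAA+celecoxib, against 10.9, 8.29 and 8.15 CPM with TAA alone, so that the groups were separated by the gap between 8.14 and 8.15 CPM. Its log2 fold change was -0.29 ± 0.25, and it was -0.19 without TAA+celecoxib 1, -0.15 without TAA 1 and -0.36 without TAA 3. The 11 macrophage genes had a median log2 fold change of -0.69 here, with Adgre1 at 0.00, and none passed. Of the 11, 5 did not overlap and were lower in TAA+celecoxib, beside 5.03% of all genes tested. The 7 T cell genes had a median of 0.63, with 2 not overlapping and higher in TAA+celecoxib, beside 5.87% of all genes, and with Cd4 at -0.24. The part of these cells in the platelet gene values was not tested. Without TAA+celecoxib 1 the median of the 7 platelet genes was -0.48.

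**Figure D4:**
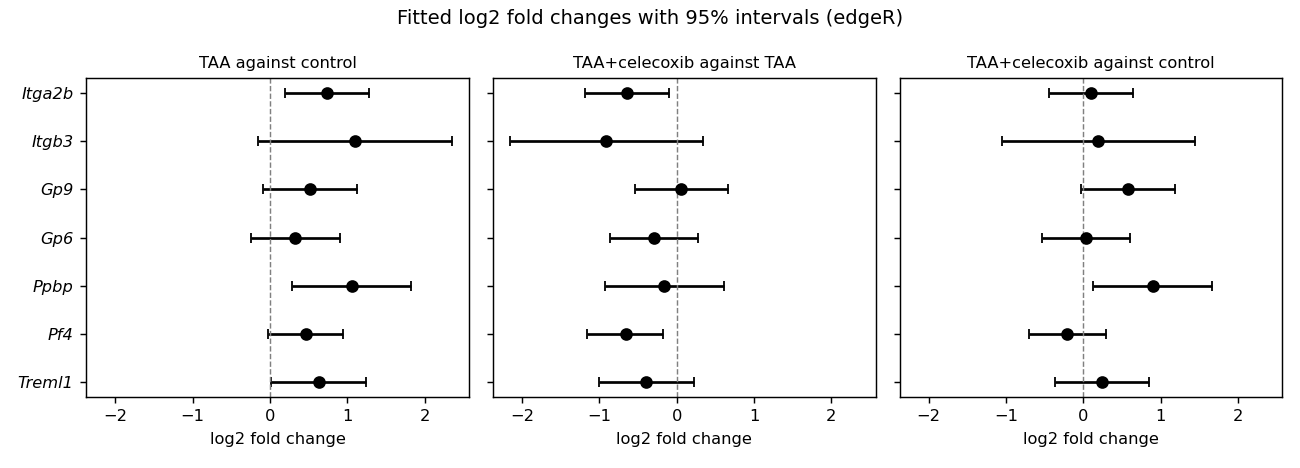
Fitted log2 fold changes of the 7 platelet genes (points) with 95% intervals (bars) in each comparison, from the edgeR fit of all 9 libraries. All 7 points lie above 0 in TAA against control, 6 lie below 0 in TAA+celecoxib against TAA, and Ppbp and Gp9 lie farthest above 0, at 0.90 and 0.58, in TAA+celecoxib against control.

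TAA+celecoxib against control addresses how far spleens given both agents differed from control spleens. It shares libraries with both other comparisons. Fitted values were above 0 for 6 of the 7 genes, with a median log2 fold change of 0.19 and a range of -0.21 to 0.90, beside a median of 0.00 over all genes, of which 50.2% were above 0 and 49.8% below. By edgeR 0 of the 7 and 0 of 15954 genes passed (0% called), with 1 of 7, Ppbp, and 803 genes, or 5.03%, at an unadjusted p under 0.05. DESeq2 called 27 genes (0.169%) and none of the 7. The groups did not overlap for Ppbp and Gp9, higher in TAA+celecoxib, as for 5.27% of all genes, and for none lower, as for 4.42%. Ppbp had 24.5, 32.3 and 31.2 CPM with TAA+celecoxib, against 7.21, 20.8 and 19.1 CPM in controls, a log2 fold change of 0.90 ± 0.34 (95% interval 0.12 to 1.67, edgeR adjusted p = 0.911). Gp9 had 7.91, 8.98 and 10.1 CPM with TAA+celecoxib, against 5.24, 5.89 and 6.94 CPM in controls, a log2 fold change of 0.58 ± 0.27 (95% interval -0.03 to 1.19, edgeR adjusted p = 0.911). Pf4 was at -0.21 ± 0.22, Itga2b at 0.10 ± 0.24, Itgb3 at 0.19 ± 0.55, Gp6 at 0.04 ± 0.25 and Treml1 at 0.24 ± 0.27 on the same scale. Without control 1 the median of the 7 was -0.10, with 3 genes above 0, and Ppbp remained the highest at 0.56. Without both control 1 and TAA+celecoxib 1 the median was 0.02, with 5 genes above 0.

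The other genes of the lineage were taken from lists of megakaryocyte regulators, other platelet receptors, granule cargo, and platelet signalling and cytoskeleton. By edgeR no gene of these lists passed in any comparison. In TAA against control, 13 of 15 receptor genes had fitted values above 0 with a median log2 fold change of 0.49, against 8 of 11 regulators (median 0.22), 7 of 11 cargo genes (0.34) and 12 of 14 signalling genes (0.20), beside 50.2% of all genes tested. The smallest edgeR adjusted p in each of these lists was 0.788. The groups did not overlap for 5 receptor genes, 5 regulators, 4 cargo genes and 4 signalling genes higher in TAA and for 1 signalling gene, Lat, lower in TAA, beside 6.94% and 7.89% of all genes.

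Among receptors, F2rl3, the thrombin receptor PAR4, had 5.97, 8.97 and 6.74 CPM with TAA, against 1.79, 3.34 and 4.89 CPM in controls. Itga2, the alpha chain of a collagen-binding integrin, had 3.55, 4.25 and 5.74 CPM with TAA, against 2.28, 2.22 and 3.13 CPM in controls. For both, every TAA library lay above every control. Among cargo genes, Thbs1, the adhesive glycoprotein thrombospondin, had 79.4, 107 and 153 CPM with TAA, against 32.4, 44.4 and 76.2 CPM in controls. Mmrn1, a factor V binding protein of platelets and endothelium, had 23.7, 30.9 and 46.4 CPM with TAA, against 3.70, 10.8 and 17.2 CPM in controls. Rab27b, a small GTPase of granule secretion, had 6.11, 6.85 and 4.86 CPM with TAA, against 0.925, 3.00 and 3.19 CPM in controls. These cargo genes too were separated, and control 1 was lowest in each. Of the enzymes, Ptgs1, the cyclooxygenase of platelets, had 48.2, 47.9 and 73.2 CPM with TAA, against 29.6, 39.9 and 42 CPM in controls. Lat, an adaptor shared with T cells, had 56.1, 61.4 and 32.2 CPM with TAA, against 145, 77.1 and 76.8 CPM in controls. Lat was thus lower in every TAA library, as were 6 of the 7 T cell genes, among them Cd3e (log2 fold change -0.77) and Lck (-0.70). Cd4 went the other way, at 0.19, with groups that overlapped. The part of T cells in the Lat values was not tested. Alox12, platelet 12-lipoxygenase, had 21.6, 23 and 19.3 CPM with TAA, against 9.49, 17.1 and 16.4 CPM in controls. Within the TAA group Itga2, Thbs1, Mmrn1 and Ptgs1 were highest in TAA 3, as were the macrophage and endothelium sums. Rab27b, Lat and Alox12 were lowest there. The part of macrophages and endothelium in these values was not tested.

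The 3 regulators of smallest p, Nfe2, Tal1 and Gfi1b, are shared with the erythroid lineage. Nfe2, which drives late megakaryocyte maturation and is active in erythroid cells, had 84.6, 32.8 and 55.9 CPM with TAA, against 20.2, 27.6 and 23.2 CPM in controls. Gfi1b, a repressor needed in both lineages, had 28.1, 8.29 and 9.61 CPM with TAA, against 7.21, 6.34 and 2.79 CPM in controls. Tal1, a helix-loop-helix factor of both, had 175, 45.2 and 86.9 CPM with TAA, against 52.6, 38.5 and 20.7 CPM in controls. All were highest in TAA 1 within the TAA group, as was the erythroid sum. The platelet genes had no gap of that size between TAA 1 and TAA 2, although Pf4 (168 and 143 CPM) and Gp6 (10.9 and 8.29 CPM) were higher in TAA 1. The part of erythroid cells in the regulator values was not tested. Thpo, which encodes a hormone made by the liver, was listed at 0 in all 9 libraries.

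In TAA+celecoxib against TAA, 13 of 15 receptor genes had fitted values below 0 (median log2 fold change -0.36), and so did 8 of 11 cargo genes (-0.32), 9 of 14 signalling genes (-0.13) and 5 of 11 regulators (0.05), beside 48.8% of all genes. The smallest edgeR adjusted p in each of these lists was 0.890. Ptgs1 had 27.4, 42.6 and 36.8 CPM with TAA+celecoxib, against 48.2, 47.9 and 73.2 CPM with TAA alone. Tbxas1, thromboxane synthase of platelets and macrophages, had 13.4, 35.6 and 29.7 CPM with TAA+celecoxib, against 36.7, 37.7 and 43.2 CPM with TAA alone. Cd9, a tetraspanin of platelets and many other cells, had 78.6, 102 and 105 CPM with TAA+celecoxib, against 140, 127 and 180 CPM with TAA alone. In these 3 genes every TAA+celecoxib library was below every TAA library, with log2 fold changes of -0.67 ± 0.23, -0.58 ± 0.33 and -0.65 ± 0.22. The groups did not overlap for 4 receptor genes, 5 signalling genes and 1 cargo gene lower in TAA+celecoxib, beside 5.03% of all genes. No gene of the 4 lists was separated and higher, beside 5.87% of all genes. Mpig6b, an inhibitory receptor of megakaryocytes, had 0.696, 2.52 and 2.93 CPM with TAA+celecoxib, against 4.97, 3.84 and 3.24 CPM with TAA alone. The rule also named Runx1 (log2 fold change 0.28 ± 0.17), Fli1 (-0.16 ± 0.12), Adra2a (-0.44 ± 0.23) and Vwf (-0.37 ± 0.25) here, of which Vwf, the carrier of factor VIII, was lower in every TAA+celecoxib library. It further named Thbs1 (-0.70 ± 0.39), Mmrn1 (-0.82 ± 0.63) and Lat, each with groups that overlapped. Lat lay above 0, at 0.68 ± 0.39, with 109, 44.1 and 86.7 CPM with TAA+celecoxib, against 56.1, 61.4 and 32.2 CPM with TAA alone. In TAA+celecoxib against control the list medians were 0.23 for regulators, 0.00 for receptors, 0.08 for cargo and 0.02 for signalling genes.

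**Figure D5:**
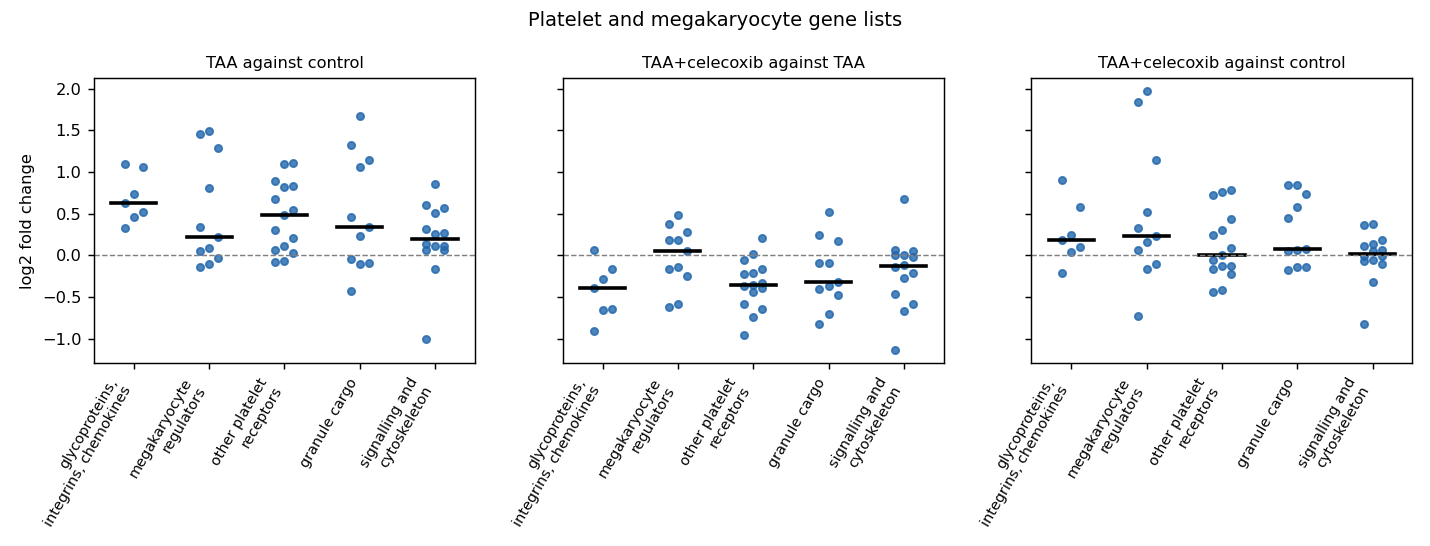
Log2 fold changes of single genes (points) and list medians (bars) for the 7 platelet genes tested and 4 further lists of the lineage, in each comparison. List medians in TAA against control lie between 0.20 and 0.63, and those in TAA+celecoxib against TAA lie below 0 except that of the regulators, 0.05.

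Pairs of the 7 genes were correlated over the 9 libraries on log2 CPM, 21 pairs in all, which share libraries and group differences. Pearson's r was positive for all 21 pairs, from 0.23 to 0.83 with a median of 0.66, and 5 pairs had an adjusted p under 0.05 by exact permutation. By Spearman's rho none did, the smallest adjusted p being 0.0868. Itga2b and Itgb3 had r = 0.83 (exact permutation p = 0.00300, adjusted 0.0286) and rho = 0.80 (exact permutation p = 0.0138, adjusted 0.0968), and r was 0.48 without control 1 and TAA+celecoxib 1, so the relation rested on those libraries. So did 3 more of the 5 pairs, with r without these libraries of 0.47 for Itga2b and Gp6 (0.82 with them), 0.49 for Itga2b and Ppbp (0.74) and 0.06 for Itgb3 and Gp6 (0.82). The pair Itgb3 and Gp9 turned to -0.27, from 0.29. Other pairs rose without these libraries, such as Itga2b and Pf4 to 0.82 from 0.66, Itga2b and Treml1 to 0.81 from 0.75, Gp6 and Pf4 to 0.75 from 0.51, and Pf4 and Treml1 to 0.84 from 0.69. Gp9 and Ppbp had r = 0.74 (exact permutation p = 0.00408, adjusted 0.0286) and rho = 0.83 (exact permutation p = 0.00827, adjusted 0.0868). Without control 1 and TAA+celecoxib 1 the r of this pair was again 0.74. It was 0.93 without TAA 3 and control 1, the libraries farthest from the median of Gp9. The neighbours Ppbp and Pf4 had r = 0.23 (exact permutation p = 0.531, adjusted 0.557) and rho = 0.22 (exact permutation p = 0.581, adjusted 0.610). Their r was 0.37 without control 1 and TAA+celecoxib 1. It was 0.59 without control 1 and control 3, the libraries farthest from the median of Ppbp.

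Likeness to the mean pattern of the 7 genes, each scaled to mean 0 and SD 1, was measured by Pearson's r over the 9 libraries and is given as a description, since the 10 genes were picked for it out of all genes tested. Of the 7 genes themselves, Itga2b was closest to the mean (r = 0.941) and Pf4 farthest (0.665). Outside them the 10 most alike were AABR07065837.1 (0.983), Notch3 (0.953), Trappc12 (0.941), Btbd9 (0.930), Chst11 (0.927), Wdr70 (0.927), Eftud2 (0.925), Zc3h18 (0.923), Fermt3 (0.921) and Aldh9a1 (0.919). One of them, Fermt3, was on the lists of the lineage. It encodes kindlin 3, which activates platelet integrins and is shared with other blood cells. Fermt3 had 171, 205 and 222 CPM with TAA+celecoxib, 250, 248 and 223 CPM with TAA alone and 162, 208 and 233 CPM in controls. Notch3, a receptor of vascular smooth muscle, had 92.9, 123 and 150 CPM with TAA+celecoxib, 179, 164 and 137 CPM with TAA alone and 78.1, 109 and 145 CPM in controls.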

How the data were processed

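RNA sequencing of 9 rat spleen libraries was analysed from the authors' deposited raw counts and FPKM. The deposited FPKM values are counts over gene length and a library constant of 0.955 to 1.05 times its count total. The aligner was HISAT2 2.0.5 and the genome mRatBN7.2, per the submitters' processing notes. Counting software, gene annotation and strandedness were not given in the sources used here. Coordinates are those of the files, which run to 282724300 on chromosome 1, and their build was not resolved. Without a strand setting, overlapping genes could share reads. RefSeq promoter windows carry GRCr8 coordinates.

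edgeR 4.0.16 in R 4.3.3 was fitted by group to all 9 libraries (TMM, filterByExpr with a minimum count of 10 and total of 15, quasi-likelihood test, 2-sided), leaving 15954 genes. The SE of a log2 fold change is its size over the square root of F. With 3 libraries a side an exact permutation test cannot go below p = 0.1, so none was used for groups. Alternatives were DESeq2 1.42.0, limma-voom (limma 3.58.1), RLE and upper quartile factors, no filter, fits of the groups compared, a replicate block, and leaving out libraries. The fit was tested on simulated data. The members and lists were chosen with earlier results of these data known. The rule for naming genes beyond the 9 allowed, per list and comparison, the 3 of smallest p, and the 10 genes most like the members. Not all genes so allowed were named. In TAA+celecoxib against control no receptor, cargo or signalling gene was given a fitted value. Some genes, such as Lck, Hdc and Kit, were named outside the rule. One count equalled 0.0526 to 0.0704 CPM before TMM scaling, and limits from counts cover counting error alone. Replicate numbers were checked for pairing by the correlation of deviations from group means: for TAA+celecoxib and control these were 0.475, 0.178 and 0.337, which meets the rule that every pair exceed 0.1, while the labels give no shared animal or batch; for the other comparisons they did not all exceed it. One regulator gene is not reported here.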

Additional observations from a re-analysis of the deposited data

How the results depend on the processing

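The 7 genes tested kept a fitted value above 0 in TAA against control under every alternative run, and no member passed an adjusted p of 0.05 under any of them. The median log2 fold change of the members ranged over left-out libraries from 0.42 to 0.79 in TAA against control, from -0.57 to -0.35 in TAA+celecoxib against TAA and from -0.10 to 0.37 in TAA+celecoxib against control. Over all genes, edgeR's count of 0 was 58, 25 and 27 by DESeq2 in these comparisons in turn, and 1 in TAA+celecoxib against control when that pair of groups was fitted alone. With a library left out it ranged from 0 to 0 in TAA against control, from 0 to 3 in TAA+celecoxib against TAA (3 without TAA 1) and from 0 to 0 in TAA+celecoxib against control; the cause was not tested. Directions turned where values were near 0. Gp9 in TAA+celecoxib against TAA ranged from -0.18 (without TAA 3) to 0.21 and was -0.03 without TAA+celecoxib 3. In TAA+celecoxib against control, Itgb3 was -0.21 without TAA+celecoxib 2 and ranged from -0.22 (without control 1) to 0.55, Itga2b was -0.08 without TAA+celecoxib 3 and ranged from -0.10 (without control 1) to 0.37, and Gp6 was -0.02 without TAA+celecoxib 2, ranged from -0.16 (without control 1) to 0.19 and was -0.07 without control 1 and TAA+celecoxib 1 together. With the replicate block the member medians were 0.63, -0.38 and 0.25 and 0 genes were called, so it changed no call by adjusted p. Unadjusted edgeR p-values in TAA against control moved with it, from 0.0783 to 0.00578 for Itgb3 and from 0.045 to 0.0706 for Treml1. Treml1 also had an unadjusted p of 0.0562 by edgeR with upper quartile factors and of 0.0596 by limma-voom. Depth limits Gp5, with 13 counts in all.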

Other observations

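Gata1, which encodes the chief transcription factor of megakaryocytes and erythroid cells and was named after its values were seen, was at or under the level of 3 counts in 6 of the 9 libraries. It had 0.0633, 0.631 and 0.0564 CPM with TAA+celecoxib, 0.995, 0 and 0.157 CPM with TAA alone and 1.23, 0 and 0 CPM in controls. Zfpm1, which encodes its cofactor FOG1, had 112, 159 and 95.5 CPM with TAA+celecoxib, 139, 94 and 89.9 CPM with TAA alone and 83.5, 84.4 and 87 CPM in controls, and its groups did not overlap between TAA+celecoxib and control (log2 fold change 0.52 ± 0.22, edgeR adjusted p = 0.911). The erythroid genes summed to 408, 304 and 118 CPM in TAA 2, control 2 and control 3, where Gata1 was at 0. Whether the Gata1 entry captured all reads of that gene was not tested, so its low counts do not show that Gata1 was absent.

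Clec1b, the podoplanin receptor of platelets, and Tubb1, the beta tubulin of the platelet rim, were also named after their values were seen. Clec1b had 12, 15.8 and 20.3 CPM with TAA+celecoxib, 21.8, 16.9 and 15 CPM with TAA alone and 14.7, 19.8 and 21.8 CPM in controls, with groups that overlapped throughout. Tubb1 had 11.4, 19.8 and 20 CPM with TAA+celecoxib, 21.6, 28.5 and 21 CPM with TAA alone and 4.62, 15.7 and 18.9 CPM in controls, so that every TAA library lay above all others.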
